A study of Mus musculus with 4 samples.

Results

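The genes described here are the 10 that carry a microRNA (miRNA) from its primary transcript to the silencing complex. They were Drosha, Dgcr8, Xpo5, Dicer1, Tarbp2, Prkra, Ago1, Ago2, Ago3 and Ago4. They were picked by gene symbol for their known roles, at a time when earlier results of these data were known. All 10 were found among the 22322 genes listed for each library. The mRNA libraries came from heart muscle cells of male mice, isolated by perfusing the heart through the aorta (Langendorff perfusion). In the TAC group (n = 2) the transverse aorta had been constricted, which makes the heart pump against a raised pressure, and the sham group (n = 2) had been operated on without the constriction. No strain, transgene or drug given as a treatment is named in the sources used here for either group, and the constriction was done under ketamine and xylazine. Surgery was done at 2 months of age, and the hearts were taken at 14 weeks, which the sources give both as the time after surgery and as the age. Each library came from 1 mouse, and the cells of that heart were divided between this assay, small RNA sequencing, protein blots and PCR. The small RNA libraries were not analysed here.

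Most miRNAs are made in a few cleavage steps. In the nucleus the Microprocessor, the RNase III enzyme Drosha with its RNA-binding partner Dgcr8, cuts a hairpin out of the primary transcript, and exportin 5 (Xpo5) carries the hairpin to the cytoplasm. There Dicer1, helped by the double-stranded RNA-binding proteins Tarbp2 (TRBP) and Prkra (PACT), cuts off the loop, and 1 strand is loaded into an Argonaute protein, where bases 2 to 8, the seed, pair with target mRNAs. In heart muscle cells this pathway is known to be required, since mice that lose Dicer1 or Dgcr8 in these cells develop heart failure. The comparison of TAC with sham asks whether the transcripts of this machinery differ when the heart is under long pressure overload.

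The libraries held between 24237777 and 32118323 fragments counted on genes, and mitochondrial transcripts took between 39.84% and 47.42% of them, the highest share being in TAC 1. The 8 cardiomyocyte markers summed to between 54454 and 61903 CPM (counts scaled to a common library total, with TMM factors between libraries). Markers of other heart cells were present at lower levels and were lower in TAC for 8 of 8 endothelial, 8 of 8 fibroblast, 8 of 8 macrophage and 8 of 8 mural genes. Their summed levels were 500.3 to 595.7 CPM in sham and 270.4 to 378.0 CPM in TAC for endothelial cells, 166.9 to 233.2 and 95.8 to 132.1 for fibroblasts, 62.0 to 119.7 and 31.3 to 59.9 for macrophages, and 738.9 to 782.1 and 434.8 to 567.3 for mural cells. None of these markers was at 0. The part of these other cells in the values below was not tested, and in bulk RNA fewer cells of a type cannot be told apart from less RNA per cell.

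None of the 10 genes was called in TAC at an adjusted p under 0.05, where 5.01% of the 12499 genes tested were called, 2.43% lower and 2.58% higher in TAC (edgeR's quasi-likelihood test with Benjamini-Hochberg adjustment over all genes tested). DESeq2 also called 0 of the 10, against 7.4% of all genes. None was called with edgeR after total-count scaling (4.22% of all genes) or scaling by totals without mitochondrial genes (5.1%), or with limma on log2(FPKM + 0.1) (1.56%). The direction of the calls over all genes depended on the scaling. TMM called 322 higher and 304 lower in TAC, total-count scaling 105 and 423, and totals without mitochondrial genes 188 and 450. At an unadjusted p under 0.05, edgeR had 3 of the 10, Dicer1 and Ago1 lower and Tarbp2 higher in TAC, where 27.5% of all genes passed. The TAC and sham libraries did not overlap for 5 of the 10, and this was so for 60.1% of all genes tested. TAC was the higher group for 2 of them, Tarbp2 and Ago4, and for 29.8% of all genes. The fitted change was below 0 for 6 of the 10 and for 50.9% of all genes. The 10 genes had a median log2 fold change of -0.04, against -0.01 over all genes tested. Over the 10 genes, the 95% intervals of the change fitted with TMM scaling and all 4 libraries, in percent of the sham level, spanned -34.1% to 45.2%. A single gene was given no exact permutation p, because 2 libraries against 2 cannot reach one under 0.333.

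**Figure D1:**
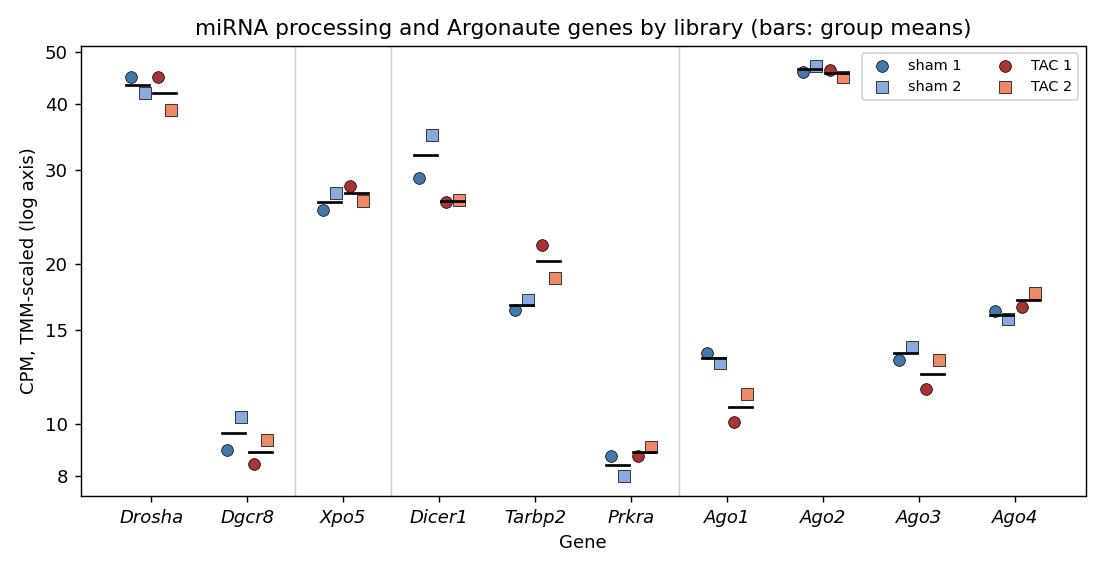
Level of each of the 10 genes in each library, in TMM-scaled CPM on a log axis, with circles and squares for the libraries of each group and black bars for group means. Dicer1 and Ago1 lie lower in both TAC libraries and Tarbp2 lies higher in both, while Drosha, Xpo5, Prkra and Ago2 overlap between the groups.

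Per unit of transcript length, the machinery was unevenly expressed. In FPKM (fragments scaled to transcript length and library total), averaged over the 4 libraries, Tarbp2 had the highest level, 12.1, and Drosha followed at 9.47. Prkra (5.36) and Xpo5 (5.25) came next, and their ranges over the libraries overlapped. Ago2 (3.35), Dicer1 (3.14), Ago4 (2.55), Dgcr8 (2.15) and Ago1 (1.74) formed a run in which each gene overlapped its neighbour. Ago3 was lowest at 0.965 FPKM and overlapped none of the others. Of the genes with any FPKM, 18.36% had a higher mean than Tarbp2 and 22.34% a higher mean than Drosha, whereas 61.04% lay above Ago3. Within the Microprocessor, Drosha thus stood above Dgcr8 in every library, at 10.91 and 9.65 FPKM in sham and 8.63 and 8.69 in TAC, against 2.27 and 2.48 in sham and 1.68 and 2.18 in TAC.

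Drosha, the nuclease of the Microprocessor, is encoded on the plus strand at chr15:12824815-12935291 (mm10). It measured 44.9 and 41.9 CPM in sham 1 and 2, and 44.9 and 38.9 CPM in TAC 1 and 2. The groups overlapped, with TAC 1 level with the higher sham library and TAC 2 the lowest of the 4. The means were 43.4 ± 2.12 CPM (SD, n = 2) in sham and 41.9 ± 4.25 CPM in TAC, a log2 fold change of -0.05 ± 0.10 (SE). By edgeR the adjusted p was 0.768, and the interval ran from a change of -17.4% to 12.9%.

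Dgcr8, which recognises the hairpin's stem for Drosha, lies on the minus strand at chr16:18253948-18289246. It measured 8.94 and 10.3 CPM in sham and 8.39 and 9.32 CPM in TAC, with TAC 2 between the sham libraries. The log2 fold change was -0.12 ± 0.14, with an edgeR adjusted p of 0.617 and an interval from a change of -27.1% to 16.0%. Exons of Dgcr8 overlap Trmt2a on the opposite strand and the protein-coding Gm49776 on the same strand. The deposited counts of Dgcr8 and Trmt2a had fractions in 3 of the 4 libraries. In each of those 3, the fractions of Dgcr8 and Trmt2a added up to a whole number, within 0.005. The sum over both genes was 573 and 533 counts for the sham libraries, and 523 and 417 counts for the TAC libraries, or 18.1, 18.5, 18.8 and 17.1 CPM. The Dgcr8 part of this sum was 49.32% and 55.63% in sham and 44.67% and 54.68% in TAC. The counts of the other 9 members were whole numbers in every library, among them Ago2, whose exons overlap the protein-coding Chrac1 on the opposite strand.

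The Dgcr8 locus is also of interest for its own hairpin. The annotation places the 79-base hairpin of miR-1306 at chr16:18284239-18284317 inside a coding exon of Dgcr8, on the same strand. Its mature strands, from RefSeq (mm10), are shown because a cut at this hairpin is a cut in the Dgcr8 mRNA itself. The 3p strand lies at chr16:18284248-18284268 and the 5p strand at chr16:18284288-18284310, and the capitals are the seeds.
miR-1306-3p: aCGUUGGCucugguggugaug
miR-1306-5p: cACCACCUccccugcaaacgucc

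Xpo5, the exporter of pre-miRNA hairpins, is on the plus strand at chr17:46202782-46243598. It measured 25.2 and 27.1 CPM in sham and 28.0 and 26.3 CPM in TAC. The groups overlapped, since TAC 2 lay between the sham libraries. The log2 fold change was 0.05 ± 0.09, with an edgeR adjusted p of 0.739 and an interval from a change of -10.8% to 20.9%.

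Dicer1, the cytoplasmic RNase III enzyme, is on the minus strand at chr12:104687742-104751952. It measured 29.1 and 34.9 CPM in sham, and 26.1 and 26.4 CPM in TAC. Both TAC libraries were below both sham libraries, and the sham libraries were the further apart. The means were 32.0 ± 4.14 CPM in sham and 26.3 ± 0.218 CPM in TAC, a log2 fold change of -0.28 ± 0.11. The unadjusted p was 0.0333 and the adjusted p 0.149 by edgeR, so this difference did not pass the test. The interval ran from a change of -31.2% to -2.01%, and 38.9% of all genes tested had a larger change in either direction. Without sham 2, the library with the most Dicer1, the log2 fold change was -0.14, and without sham 1 it was -0.41.

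Tarbp2, the main double-stranded RNA-binding partner of Dicer1, lies on the plus strand at chr15:102518192-102523676. It measured 16.4 and 17.1 CPM in sham, and 21.7 and 18.8 CPM in TAC. Both TAC libraries were above both sham libraries, TAC 1 by more. The log2 fold change was 0.28 ± 0.11, with an unadjusted p of 0.0405 and an adjusted p of 0.164 by edgeR. The interval ran from a change of 1.09% to 45.2%. Without TAC 1, which also had the highest mitochondrial share, the log2 fold change was 0.17, and without TAC 2 it was 0.38.

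Prkra, the other Dicer1 partner and an activator of the kinase PKR, is on the minus strand at chr2:76629898-76648015. It measured 8.72 and 7.99 CPM in sham, and 8.72 and 9.04 CPM in TAC. Sham 1 and TAC 1 were level, so the groups met. The log2 fold change was 0.09 ± 0.14, with an edgeR adjusted p of 0.712 and an interval from a change of -14.8% to 32.1%.

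The ratio of counts between genes within a library does not depend on how libraries are scaled. Dicer1 had 1.77 and 2.04 counts for each Tarbp2 count in sham, and 1.20 and 1.40 in TAC. The TAC ratios were lower in both libraries. Drosha had 1.55 and 1.20 counts for each Dicer1 count in sham, and 1.72 and 1.47 in TAC, and here the groups overlapped. These pairs were picked after the values had been seen and carry no test.

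**Figure D2:**
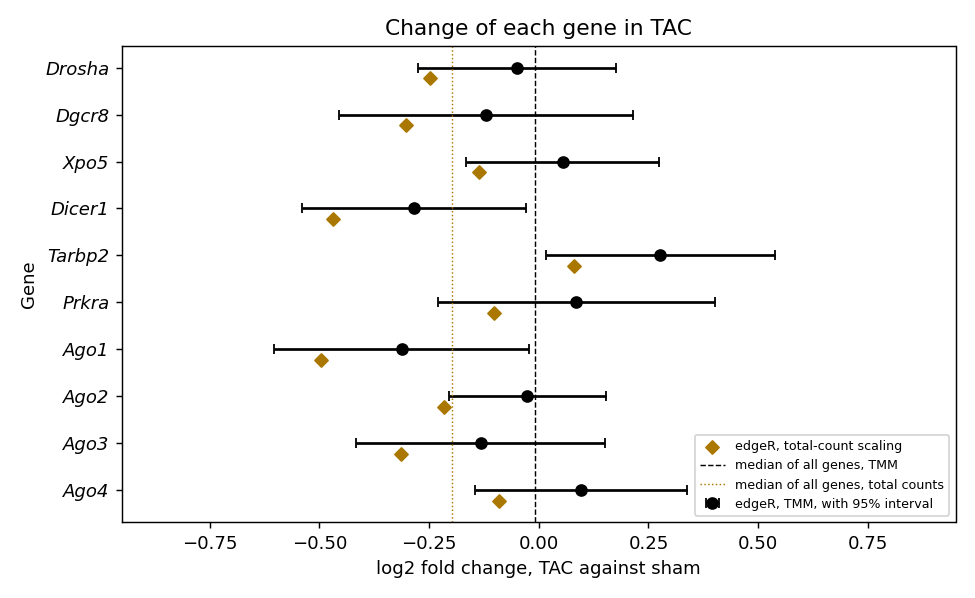
Fitted log2 fold change of each gene in TAC against sham, with 95% intervals (black, TMM scaling), and the same change when libraries were scaled by their total counts (diamonds). Dashed and dotted lines mark the median of all genes tested, -0.01 and -0.20, and each gene keeps nearly the same distance from its line.

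Ago2, the Argonaute that can itself cut a fully paired target, is on the minus strand at chr15:73095844-73184935. Its level was 46.0 and 47.1 CPM in sham, and 46.3 and 45.0 CPM in TAC. The 4 libraries were close together and the groups overlapped. The means were 46.5 ± 0.780 CPM in sham and 45.7 ± 0.902 CPM in TAC, a log2 fold change of -0.03 ± 0.08. The edgeR adjusted p was 0.854 and the interval ran from a change of -13.2% to 11.2%, the narrowest of the 10. Of all genes tested, 93.5% had a larger change than Ago2.

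The other Argonaute genes sit side by side on chromosome 4, all on the minus strand, in the order Ago3 (chr4:126331704-126429556), Ago1 (chr4:126435012-126468583) and Ago4 (chr4:126489541-126533472). Gaps of 5455 and 20957 bases separate them, and the cluster spans 201769 bases. Ago1 measured 13.6 and 13.0 CPM in sham, and 10.1 and 11.4 CPM in TAC. Both TAC libraries were below both sham libraries, TAC 1 being the lowest. The Ago1 means were 13.3 ± 0.416 CPM in sham and 10.7 ± 0.942 CPM in TAC, a log2 fold change of -0.31 ± 0.12. This was the largest fitted change among the 10 genes, yet 35.1% of all genes tested had a larger one. The unadjusted p was 0.0381 and the adjusted p 0.160 by edgeR, with an interval from a change of -34.1% to -1.53%.

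Ago3 measured 13.2 and 13.9 CPM in sham, and 11.6 and 13.2 CPM in TAC. The groups were separate by a small margin, with TAC 2 just under sham 1. Its fitted change was -0.13 ± 0.12 on the log2 scale (edgeR adjusted p 0.509, interval from a change of -25.0% to 11.1%). Ago4 measured 16.3 and 15.7 CPM in sham, and 16.6 and 17.7 CPM in TAC. Both TAC libraries were higher by a small margin, and the fitted change was 0.10 ± 0.10 on the log2 scale (adjusted p 0.579, interval from a change of -9.63% to 26.4%). With TMM the neighbours on chromosome 4 therefore had fitted changes of both signs. With total-count scaling all were below 0, at -0.31 for Ago3, -0.50 for Ago1 and -0.09 for Ago4. Ago1 had 0.835 and 0.828 counts for every Ago4 count in sham, and 0.607 and 0.646 in TAC, so the ratio was lower in both TAC libraries, by more than the libraries of a group differed. For each Ago2 count there were 0.296 and 0.277 Ago1 counts in sham, and 0.218 and 0.253 in TAC. These ratios were also picked with the values in view.

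**Figure D3:**
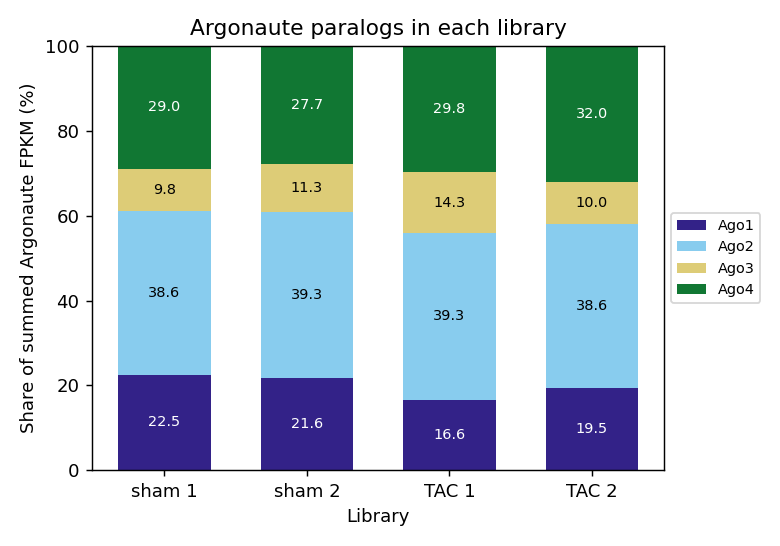
Share of each Argonaute gene in the summed FPKM of the family, in percent, stacked for each library. In FPKM, Ago2 holds 38.6% to 39.3% in every library, and with CPM per exon length, not drawn, it holds 40.4% to 43.2%. The Ago1 band is narrower in both TAC libraries, at 16.6% and 19.5%.

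The 4 Argonaute genes together had 9.45 and 9.01 FPKM in sham and 7.41 and 8.53 FPKM in TAC. Ago2 made up 38.6% and 39.3% of this sum in sham, and 39.3% and 38.6% in TAC. The Ago1 share was 22.1 ± 0.634% in sham and 18.0 ± 2.02% in TAC, and the libraries did not overlap. The Ago4 share was 28.4 ± 0.882% in sham and 30.9 ± 1.54% in TAC, again without overlap. The Ago3 share was 10.6 ± 1.05% in sham and 12.1 ± 3.07% in TAC, where TAC 1 (14.3%) was above the other 3 libraries.

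That high Ago3 share in TAC 1 comes with a shift in transcript length. A gene's count divided by its FPKM and the library's total gives the length, in bases, that the deposited values assume. For Ago3 this length was 15582, 14204 and 15630 bases in sham 1, sham 2 and TAC 2, and 9517 bases in TAC 1. The longest annotated Ago3 transcript has 15595 bases (GENCODE M21) and the other 5 have 433 to 690. Ago3 was thus highest in FPKM in TAC 1 (1.06, against 0.85 in TAC 2) although its scaled count was lowest there. The shift was 1.642-fold between the longest and shortest length for Ago3, 1.089-fold for Dicer1, 1.026-fold for Ago1 and 1.027-fold for Tarbp2. With CPM divided by annotated exon length in its place, the Ago3 share was 9.85% and 10.4% in sham, and 9.19% and 9.99% in TAC, with TAC 1 the lowest. On that scale Ago1 held 20.7% and 19.9% in sham, and 16.3% and 17.7% in TAC, still without overlap. Ago4 held 29.0% and 28.1% in sham, and 31.3% and 32.0% in TAC, also without overlap. Ago2 held 40.4% and 41.6% in sham, and 43.2% and 40.4% in TAC, a wider range than in FPKM.

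Scaling moved all of these values together. When libraries were scaled by their total counts, which include the mitochondrial transcripts, the median log2 fold change of all genes tested was -0.20, and with TMM it was -0.01. Relative to that median, no member moved by more than 0.0076 between TMM and the 3 other count scalings. Against zero, however, the fitted changes of Xpo5 (-0.14), Prkra (-0.10) and Ago4 (-0.09) turned negative under total-count scaling, and Tarbp2 had a log2 fold change of 0.08. In the deposited FPKM, which use total counts, 6 of the 10 genes (Drosha, Dgcr8, Xpo5, Dicer1, Ago1 and Ago2) were lower in both TAC libraries than in both sham libraries, as were 45.6% of all genes tested. With TMM-scaled counts 3 of the 10 were lower without overlap, against 30.3% of all genes.

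**Figure D4:**
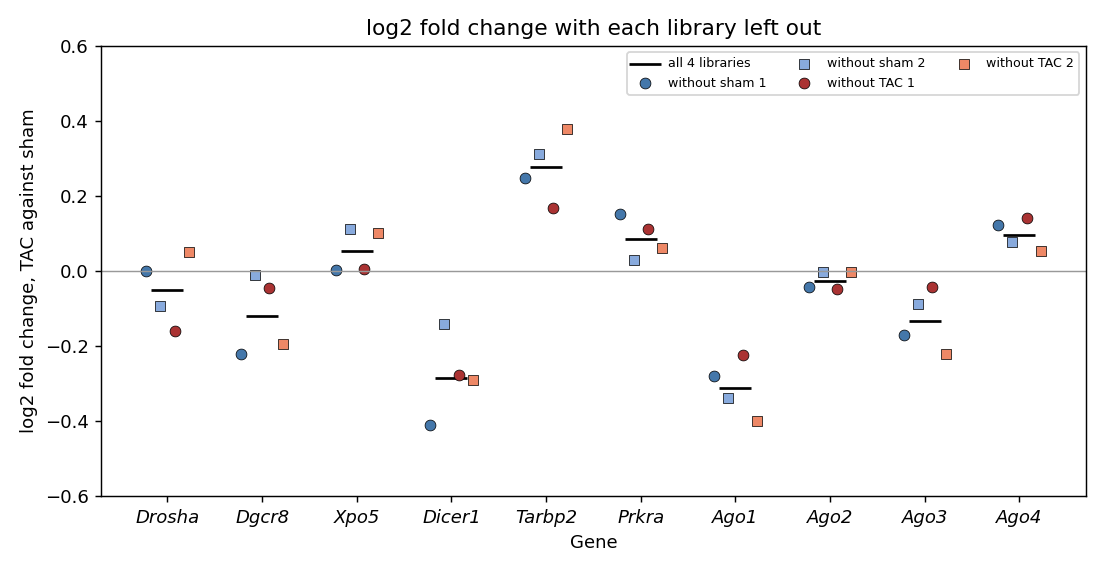
Fitted log2 fold change of each gene in TAC against sham with all 4 libraries (black bars) and with each library left out in turn (points). Drosha changes sign when sham 1 or TAC 2 is left out. Every other gene keeps its sign in all 4 of these fits, some of them close to 0, such as Xpo5 at 0.0027 and Ago2 at -0.0033.

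In the fits with a library left out, 1 library stands alone in its group, so the spread comes from the other group's 2 libraries and the lone library is assumed to vary like them. Under TMM none of the 10 was called without sham 1 (4.55% of all genes), without sham 2 (5.8%), without TAC 1 (2.34%) or without TAC 2 (10.3%). The Ago1 log2 fold change then ranged from -0.40 to -0.22, Dicer1 from -0.41 to -0.14, Tarbp2 from 0.17 to 0.38, and Ago4 from 0.05 to 0.14. Drosha ranged from -0.16 to 0.05, Dgcr8 from -0.22 to -0.0096, and Ago3 from -0.22 to -0.043. The one fit that called members combined total-count scaling with leaving out TAC 2, which leaves TAC 1, the library with the most mitochondrial RNA, alone in its group. It called Dicer1 (log2 fold change -0.59, adjusted p 0.00239), Ago1 (-0.70, 0.00769), Ago2 (-0.31, 0.0442) and Ago3 (-0.52, 0.0329), and 27.2% of all genes with them. The same scaling without sham 1 called none of the 10 and 1.85% of all genes.

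Genes whose profile over the 4 libraries was nearest to that of a member were named by the distance between their centred log2 CPM values, which describes 4 libraries and carries no test. Nearest to Drosha were Fam160b2 (0.0218), Arhgef19 (0.0232) and Cnot10 (0.0283). Nearest to Dicer1 were Znrf3 (0.0155), Hnrnpl (0.0251) and Zc3h4 (0.0277). Nearest to Ago2 were Nrf1 (0.0119), Crip2 (0.0121) and Cul3 (0.0141).

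Around the 10 genes, 78 further genes of the miRNA pathway were listed by role, and 73 of them were tested. In TAC 5 rose and 2 fell, that is 7 of 73, where 5.01% of all genes were called, and the median log2 fold change was -0.06. Without overlap between the groups, 30 of the 73 were higher and 28 lower in TAC under TMM, against 29.8% and 30.3% of all genes. The 5 that were not tested had almost no counts. Among them Lin28a, Trim71 and Piwil1 had 0 counts in every library, and Lin28b, which blocks let-7 maturation together with Lin28a, had at most 3. With total-count scaling, which shifts all genes downward, 4 of the 73 were called, all lower in TAC. Of all genes, 4.22% were called under that scaling, and 423 of those 528 genes were lower. Among the 4 pathway genes were Tnrc6c (edgeR adjusted p 0.0406), Tob2 (0.0227) and Btg2 (0.00115).

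Of 12 Microprocessor partners, 1 rose and 1 fell in TAC, where 2.58% of all genes rose and 2.43% fell. Srsf3, a splicing factor that binds basal motifs of primary miRNAs, measured 42.7 and 35.6 CPM in sham, and 63.9 and 55.6 CPM in TAC. It rose by 0.61 ± 0.11 on the log2 scale (edgeR adjusted p 0.0311, but 0.112 with total-count scaling and 0.0789 without TAC 1). The helicase Ddx5 (-0.18, adjusted p 0.188), the cap-complex partner Srrt (0.20, 0.205) and the cap-binding Ncbp2 (0.20, 0.279) did not pass, and with total-count scaling Srrt had 0.01 and Ncbp2 0.0075.

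Of the 14 genes of nuclear export and pre-miRNA control, 11 were tested, 1 rose and none fell, beside the same 2.58% and 2.43% of all genes. Ran, the GTPase that Xpo5 needs to bind its cargo, measured 65.9 and 64.9 CPM in sham, and 82.3 and 84.3 CPM in TAC. It rose by 0.35 ± 0.07 on the log2 scale (edgeR adjusted p 0.0409), while Xpo5 itself had 0.05 ± 0.09. The Ran call was lost with total-count scaling (0.482), with the replicate block (0.0747) and without any one of the 4 libraries (0.0552 to 0.0930). Adar, which edits double-stranded RNA, had a log2 fold change of -0.58 (adjusted p 0.0856), its relative Adarb1 -0.38 (0.272), and Tut4, which adds uridines to precursors, -0.33 (0.0929).

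Of 18 partners of the silencing complex, 3 rose and none fell (2.58% and 2.43% of all genes). Hspa8, a heat shock protein of the Hsp70 family, measured 983 and 916 CPM in sham, and 1456 and 1337 CPM in TAC, and rose by 0.56 ± 0.09 on the log2 scale (edgeR adjusted p 0.0202). Hsp90aa1, the stress-inducible Hsp90, measured 156.3 and 144.8 CPM in sham, and 201.0 and 213.5 CPM in TAC, and rose by 0.46 ± 0.08 (adjusted p 0.0243). Ptges3, the Hsp90 co-chaperone p23, measured 38.4 and 39.5 CPM in sham, and 52.7 and 51.0 CPM in TAC, and rose by 0.41 ± 0.08 (adjusted p 0.0313). The Ptges3 call was lost without sham 1 (0.0906), sham 2 (0.0547) or TAC 1 (0.0892), and with the replicate number as a block (0.0531). With total-count scaling the adjusted p-values of Hspa8, Hsp90aa1 and Ptges3 were 0.107, 0.252 and 0.308. These proteins serve many clients besides Argonaute, and the other chaperones of the list, Hsp90ab1 (0.13, adjusted p 0.354) and the Hsp90 co-chaperone Fkbp4 (0.22, 0.121), did not pass. The GW182 scaffolds that bind Argonaute did not pass the test, with Tnrc6a at -0.45 (adjusted p 0.0865), Tnrc6c at -0.41 (0.0619) and Tnrc6b at -0.15 (0.339). Fmr1, an RNA-binding protein found with Argonaute, had -0.44 (0.222). Without TAC 1 the log2 fold changes of Tnrc6a and Fmr1 were -0.27 and -0.17, and without TAC 2 they were -0.65 and -0.75.

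Of 31 genes that remove tails and caps from silenced mRNAs, 1 fell and none rose (2.43% and 2.58% of all genes). Btg2, which binds the CCR4-NOT deadenylase and is also an immediate early gene, measured 148.7 and 105.0 CPM in sham, and 44.8 and 36.6 CPM in TAC. It fell by 1.64 ± 0.17 on the log2 scale (edgeR adjusted p 0.00519). Its relatives Btg1 (-0.63, adjusted p 0.103) and Tob2 (-0.51, 0.0643) and the deadenylase subunit Pan2 (-0.34, 0.217) did not pass. Lsm1, at a mean of 4.07 CPM, had the highest fitted change of this list, 0.93, and did not pass either (edgeR adjusted p 0.0534). Of the 3 Piwi-clade genes, the germline relatives of Argonaute, 1 was tested and it was not called.

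**Figure D5:**
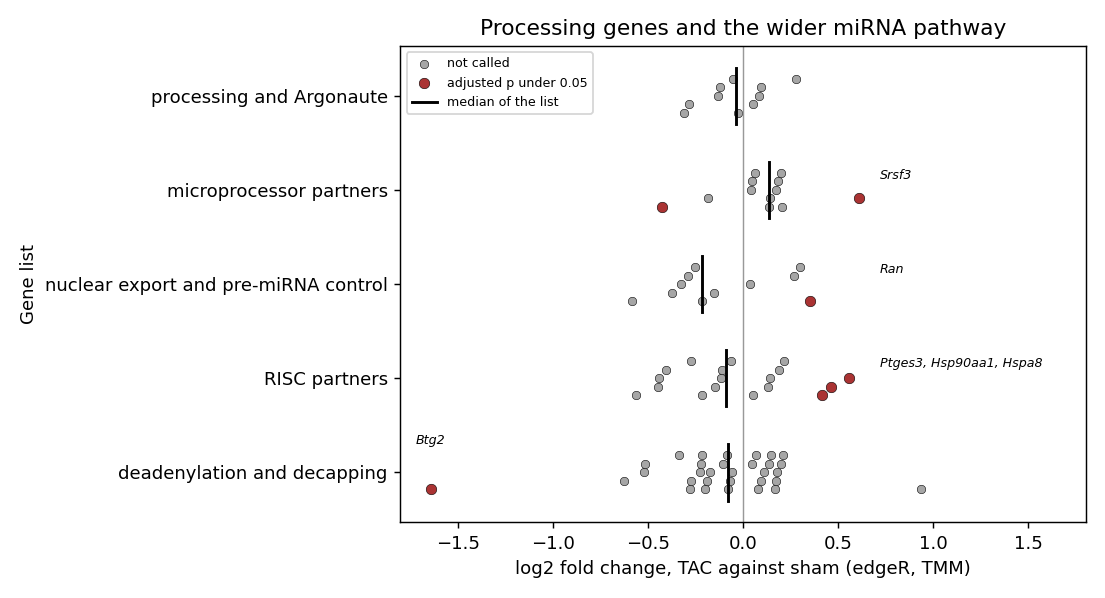
Log2 fold change in TAC against sham (edgeR, TMM) of the 10 processing and Argonaute genes and of the tested genes of 4 wider pathway lists, 1 point a gene, with red for an adjusted p under 0.05 and a black bar for the list's median. All 10 members lie between -0.31 and 0.28, with a median of -0.04. The medians of the 4 other lists lie between -0.21 and 0.14.

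The members also differ in how far their own mRNAs could be read by miRNAs. The longest annotated 3′UTR has 12742 bases in Ago3, 11064 in Ago2, 4491 in Ago1, 3851 in Dicer1 and 3682 in Ago4. It has 1574 bases in Dgcr8, 1327 in Xpo5, 513 in Prkra, 334 in Tarbp2 and 169 in Drosha. The median over the genes tested is 1249 bases, and 7 of the 10 lie above it. Matches to 5 miRNAs were looked for in these 3′UTRs, on the transcript strand only. These are 5 of the miRNAs whose pairing to another mRNA, Rbfox2, the study examined in reporter assays, and none of their levels was analysed here. Their mature sequences, from RefSeq (mm10), are shown with the seed in capitals, and the 5 seeds differ from each other.
let-7f-5p: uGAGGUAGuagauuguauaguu
miR-16-5p: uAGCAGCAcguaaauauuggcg
miR-200b-3p: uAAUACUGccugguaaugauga
miR-92a-3p: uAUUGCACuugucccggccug
miR-24-3p: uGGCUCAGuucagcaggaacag

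A match was the complement of the seed, or of bases 2 to 7 followed by an A. The letters searched were CTACCTC or TACCTCA for let-7, TGCTGCT or GCTGCTA for miR-16, CAGTATT or AGTATTA for miR-200b, GTGCAAT or TGCAATA for miR-92a, and CTGAGCC or TGAGCCA for miR-24, and a stretch holding both forms was counted once. Ago3 had 13 matches, Ago2 12, Ago4 5, Ago1 4, Dicer1 2, Tarbp2 2 and Xpo5 1, and Drosha, Dgcr8 and Prkra had 0. A pair of miR-16 matches in Ago3 overlap each other. At least 1 match was found in 7 of the 10, and in 60.58% of the 12389 tested genes with an annotated 3′UTR. By miRNA, let-7 had a match in 5 of the 10 (17.41% of all genes), miR-16 in 6 (28.91%), miR-24 in 5 (27.05%), miR-200b in 2 (21.39%) and miR-92a in 2 (14.34%). The longest 3′UTRs held the most matches, and members are not alike in length to the genes they are set beside.

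The sites shown are those with the full seed match followed by an A, the longest form counted, in the mRNAs of Dicer1, Ago1, Ago2 and Ago3, together with the let-7 match in the short 3′UTR of Tarbp2. They are written as the transcript reads, with the match in capitals. The Dicer1 site is at chr12:104690225-104690246 and the Ago1 site at chr4:126435594-126435615, both for miR-24 and on the minus strand. The Ago2 sites are on the minus strand at chr15:73097982-73098003 for let-7 and at chr15:73106047-73106068 and chr15:73102448-73102469 for miR-200b. The Ago3 sites are on the minus strand at chr4:126335040-126335061 for let-7, chr4:126344250-126344271 and chr4:126333844-126333865 for miR-92a, and chr4:126343496-126343517 for miR-24. The Tarbp2 match is on the plus strand at chr15:102523429-102523450.
Dicer1, miR-24: gaagtctcagcaggCTGAGCCA
Ago1, miR-24: gacttgccttctccCTGAGCCA
Ago2, let-7: tttacaatgtggatCTACCTCA
Ago2, miR-200b: atgtatctggtttgCAGTATTA
Ago2, miR-200b: cccaacacacatttCAGTATTA
Ago3, let-7: gcacctgccctcacCTACCTCA
Ago3, miR-92a: tttgctctcttttaGTGCAATA
Ago3, miR-92a: aggcaccgtgtgcaGTGCAATA
Ago3, miR-24: tttcaatataaaatCTGAGCCA
Tarbp2, let-7: ccagaggtgccatctCTACCTC

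The match counts are set beside the fitted changes in TAC here without a test. Ago2, with 12 matches, had the fitted change nearest to 0, and Ago3, with 13, had -0.13. Ago1 and Dicer1, with 4 and 2, had the lowest fitted changes, -0.31 and -0.28, and Tarbp2, also with 2, the highest, 0.28. A match describes letters only, and whether any of these sites is bound in heart muscle cells was not tested.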

How the data were processed

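mRNA was profiled in cardiomyocytes of 2 sham and 2 TAC mice. The deposited values of each library were an expected count and an FPKM for every gene, made by the authors, who scaled libraries by their total counts. The submitters' processing notes name Bowtie2 2.2.8, StringTie 1.3.1 and the build mm10. Neither the annotation release nor the use of strand in counting is stated there. Expected counts were rounded to whole numbers and fitted with edgeR 4.0.16 (R 4.3.3; filterByExpr, TMM, quasi-likelihood test, no block), with Benjamini-Hochberg adjustment over 12499 genes and calls at an adjusted p under 0.05. Intervals are 95% and unadjusted. Each member had between 221 and 1454 counts in a library. The samples of a group were separate mice, and they differed beyond counting noise (chi-square per degree of freedom 8.08 in sham and 26.7 in TAC). Fold changes between FPKM values were tested on log2(FPKM + 0.1) and log2(FPKM + 1) with limma 3.58.1, and DESeq2 1.42.0 was also run.

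The other settings tried were other scalings, other filters, a replicate block, other thresholds and each library left out. Crossing the replicate numbers, and combining total-count scaling with a library left out, were added after seeing the data. The members and the lists were chosen with earlier results of these data known. Named besides the members were the called genes of each wider list, with the 3 largest changes among its other genes of at least 5 CPM, and the 3 genes nearest in profile to Drosha, Dicer1 and Ago2. Tnrc6b, Hsp90ab1, Fkbp4, Lsm1 and the untested Lin28a, Lin28b, Trim71 and Piwil1 fall outside this rule and were named after their values were seen. One gene that the rule names is not reported here. Annotation came from GENCODE M21 (mm10). The edgeR script was tested on simulated data.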

Additional observations from a re-analysis of the deposited data

How the results depend on the processing

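None of the 10 genes was called under the settings tried, except that total-count scaling without TAC 2 called 4. Over the 10 genes and 17 other settings each, 143 fitted changes kept their direction and their side of the threshold, 23 reversed and 4 became significant. Each gene had at least 221 counts in every library, and 2 libraries a group leave few degrees of freedom. The study describes its sequenced mice as pairs of sham and TAC mice, but the sample labels do not state which libraries form a pair. No paired reading is given. Same-numbered libraries did not deviate together (correlation -0.26), which cannot show whether the mice were paired under other numbers. The fit with the replicate number as a block called 0 of the 10 genes, 5 of the 73 wider pathway genes (7 without the block) and 566 of all genes (626 without it), and Ran (adjusted p 0.0747) and Ptges3 (0.0531) were no longer called with it. Crossed numbers gave 0 of the 10, 14 of the 73 and 2131 of all genes. The cause of these differences was not tested.

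The count of all genes called was 1676 with no low-count filter, 195 and 214 with limma on log2(FPKM + 0.1) and log2(FPKM + 1), 92 at an adjusted p under 0.01 and 1817 under 0.1. Leaving out each library gave 301 (without TAC 1) to 1336 (without TAC 2), and with total-count scaling as well 234 (without sham 1) to 3507 (without TAC 2). The 73 wider pathway genes gave 4 calls with total-count scaling, which called 528 of all genes. They gave 13 with no filter, 1 with limma at either pseudocount, 1 at an adjusted p under 0.01 and 13 under 0.1. Leaving out each library gave 3 (without TAC 1) to 11 (without TAC 2) of them, and with total-count scaling as well 1 (without sham 1), 2 (without sham 2) and up to 30 (without TAC 2). Ptges3 was lost without sham 1, sham 2 or TAC 1 (adjusted p 0.0547 to 0.0906), and Srsf3 without TAC 1 (0.0789).

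Reversed fitted changes lay between -0.25 and 0.051. With total-count scaling, totals without mitochondrial genes, FPKM + 0.1 and FPKM + 1, Xpo5 had -0.14, -0.045, -0.13 and -0.11, Prkra -0.10, -0.015, -0.10 and -0.086, and Ago4 -0.090, -0.0040, -0.088 and -0.064. Leaving out each library gave Drosha -0.16 to 0.051, with 0.0011 without sham 1. With total-count scaling and a library left out, Drosha had -0.33 to -0.16, Xpo5 -0.20 to -0.075 (-0.15 without sham 1, -0.12 without sham 2), Prkra -0.24 to 0.028 (-0.20 without sham 2) and Ago4 -0.25 to 0.057 (-0.024 without sham 1, -0.15 without sham 2). Over the fits with a library left out under either scaling, the highest values were 0.11 for Xpo5, 0.15 for Prkra and 0.14 for Ago4. The Ago2 share of the Argonaute family differed by -0.037 percentage points between TAC and sham in FPKM, by 0.782 points with CPM per exon length, and by -0.387 to 0.314 with a library left out. The difference in Ago3 share was 1.55 points in FPKM and -0.546 points with CPM per exon length. With a library left out, the differences in FPKM share ran from -0.616 to 3.72 points for Ago3, from -5.49 to -2.63 for Ago1, and from 1.45 to 3.63 for Ago4.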
